A study of Mus musculus with 20 samples.

Results

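The Cyp3a genes encode the cytochrome P450 enzymes of subfamily 3A, and their RNA was followed here in the livers of adult mice. The members were the rows of the count and TPM tables that carry the symbols Cyp3a11, Cyp3a13, Cyp3a16, Cyp3a25, Cyp3a41a, Cyp3a41b, Cyp3a44 and Cyp3a59. These 8 symbols stood at 9 loci of the 25444 loci listed, because Cyp3a41a was listed at 2 places. Of the 9 loci, 7 passed the filter on low counts and were tested among 13704 loci, and the other 2 had 0 counts in every liver. Liver RNA was sequenced from mice of the inbred strains C57BL/6N (B6) and C3H/HeN (C3). There were 4 groups of 5 mice each, B6 females, B6 males, C3 females and C3 males, all 20 weeks of age. The labels name no treatment, and females and males were housed in different rooms, which cannot be told apart from sex itself. RNA came from pieces of the left lateral lobe, and in such bulk samples fewer cells of a type and less RNA per cell cannot be told apart.

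Enzymes of the CYP3A subfamily sit in the membrane of the endoplasmic reticulum, where they take electrons from the cytochrome P450 reductase Por and oxidize steroid hormones, bile acids and a broad range of drugs. In liver their genes are known targets of the nuclear receptors PXR (Nr1i2) and CAR (Nr1i3), and of the hepatocyte factor HNF4A. Some of the mouse genes are known to differ between the sexes under the control of pituitary growth hormone, whose release is pulsatile in males and more continuous in females.

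All loci lie on chromosome 5 of the mm9 build. Of these, 8 loci form a cluster that spans 727.7 kb, in the order Cyp3a16, Cyp3a41b, Cyp3a41a, Cyp3a44, Cyp3a11, Cyp3a25 and Cyp3a59, and Cyp3a59 alone in it is transcribed from the plus strand. Cyp3a13 (chr5:138334161-138362847, minus strand) lies 7.83 Mb away from the cluster. The second locus of Cyp3a41a and the locus of Cyp3a41b have the same coordinates (chr5:146319533-146345599). Both were listed at 0 counts, and this sets no limit on their expression, because read pairs that overlapped more than 1 gene were not counted. Over all loci listed, 826 shared their coordinates with another locus, and all 826 were at 0 counts, against 24.0% of the loci that shared them with none.

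How far the counts can separate the members depends on how alike their sequences are. The coding sequences of Cyp3a41a and Cyp3a41b differed at 2 of 1515 bases, and 85.6% of the 125-base windows of the Cyp3a41a transcript, as long as 1 read, occurred unchanged in Cyp3a41b. Since reads with more than 1 place of alignment were left out, the counts of Cyp3a41a (chr5:146505624-146531712) cover only part of its RNA and may hold reads of its copy. Cyp3a25 and Cyp3a59 were 97.5% identical in coding sequence and shared 2.72% of such windows. Cyp3a11, Cyp3a13, Cyp3a16 and Cyp3a44 shared 0 windows with any other member, although Cyp3a11 was 92.8% to 95.2% identical to Cyp3a16, Cyp3a41a and Cyp3a44 in coding sequence. The alignment was to mm9, a C57BL/6J sequence, and the windows were compared in transcripts of the same build only. Losses of C3 reads at strain differences, and C3 reads of 1 member placed on another, were not tested.

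The promoters of the 6 tested members of the cluster are printed here, to show which members are near copies of each other just upstream of the gene. Each line gives the 250 bases before the start of transcription, in the direction of transcription. They were taken from the RefSeq table of build GRCm38.p6, in which 8 of 8 symbols matched, and each window was found once without a mismatch on chromosome 5 of mm9, where its coordinates are given. Capitals mark ATTGAT, the core bound by factors of the Onecut and Cux families (ATCAAT on the strand shown), and CAAAGTCCA, a form of the HNF4 site.
Cyp3a16: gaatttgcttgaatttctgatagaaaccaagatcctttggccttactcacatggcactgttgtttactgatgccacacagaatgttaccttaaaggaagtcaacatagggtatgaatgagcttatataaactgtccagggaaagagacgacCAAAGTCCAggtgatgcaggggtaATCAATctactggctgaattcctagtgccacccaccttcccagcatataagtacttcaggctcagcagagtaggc
Cyp3a41a: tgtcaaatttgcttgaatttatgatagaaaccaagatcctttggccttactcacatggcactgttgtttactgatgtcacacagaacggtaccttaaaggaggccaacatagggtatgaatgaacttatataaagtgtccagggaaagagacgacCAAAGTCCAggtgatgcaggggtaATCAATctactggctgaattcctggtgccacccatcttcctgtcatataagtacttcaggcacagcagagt
Cyp3a44: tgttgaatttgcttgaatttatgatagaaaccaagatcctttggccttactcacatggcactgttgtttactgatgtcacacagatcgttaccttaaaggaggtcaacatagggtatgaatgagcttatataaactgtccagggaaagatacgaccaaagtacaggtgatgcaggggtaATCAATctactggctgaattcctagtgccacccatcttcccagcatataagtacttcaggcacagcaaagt
Cyp3a11: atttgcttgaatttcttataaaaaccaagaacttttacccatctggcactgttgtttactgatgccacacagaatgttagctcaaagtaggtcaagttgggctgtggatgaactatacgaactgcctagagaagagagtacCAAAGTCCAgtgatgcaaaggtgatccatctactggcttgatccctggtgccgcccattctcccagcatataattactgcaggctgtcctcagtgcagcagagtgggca
Cyp3a25: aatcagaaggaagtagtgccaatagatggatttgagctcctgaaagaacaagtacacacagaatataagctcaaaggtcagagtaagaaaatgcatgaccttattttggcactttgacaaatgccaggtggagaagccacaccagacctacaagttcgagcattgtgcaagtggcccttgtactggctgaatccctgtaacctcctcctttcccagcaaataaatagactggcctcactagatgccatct
Cyp3a59: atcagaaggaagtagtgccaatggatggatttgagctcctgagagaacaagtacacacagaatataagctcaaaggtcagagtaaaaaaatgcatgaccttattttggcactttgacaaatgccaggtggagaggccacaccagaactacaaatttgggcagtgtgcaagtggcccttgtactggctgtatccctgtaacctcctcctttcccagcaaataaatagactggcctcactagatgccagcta
The windows lie at chr5:146230593-146230842 for Cyp3a16, chr5:146531713-146531962 for Cyp3a41a, chr5:146617451-146617700 for Cyp3a44, chr5:146691431-146691680 for Cyp3a11 and chr5:146821195-146821444 for Cyp3a25, all on the minus strand, and at chr5:146890584-146890833 on the plus strand for Cyp3a59.

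The windows of Cyp3a16, Cyp3a41a and Cyp3a44 were 93.9% to 95.9% identical to one another. Each of them was 81.3% to 83.7% identical to the window of Cyp3a11, and the windows of Cyp3a25 and Cyp3a59 were 95.6% identical to each other. The window of Cyp3a41b differed from that of Cyp3a41a at 1 of 250 bases. On either strand, ATTGAT occurred in Cyp3a16, 75 bases before the start, and in Cyp3a41a, Cyp3a41b and Cyp3a44, 71 bases before it. It did not occur in the windows of Cyp3a11, Cyp3a13, Cyp3a25 and Cyp3a59, and 6.97% of all 27025 promoters of the same length held it. CAAAGTCCA occurred in Cyp3a11, Cyp3a16, Cyp3a41a and Cyp3a41b but not in Cyp3a44, Cyp3a13, Cyp3a25 or Cyp3a59, and 0.381% of all promoters held it. AGGTCA, a half-site of nuclear receptors, was found in Cyp3a11, Cyp3a44, Cyp3a25 and Cyp3a59, against 13.8% of all promoters, and the half-site AGTTCA in Cyp3a11, Cyp3a41a and Cyp3a41b, against 11.9%. The STAT5 and BCL6 motif TTCNNNGAA was in 0 of the 8 windows (7.18% of all promoters), and the C/EBP motif TTGCNNAA in that of Cyp3a25 alone (9.55%). No matches overlapped, both strands were searched, and the motifs were chosen after the sequences had been seen. A match is a description of letters and not of binding.

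The libraries held between 27370921 and 46835745 counts, and 3 counts, about the least that shows a gene, correspond to 0.0641 to 0.110 CPM, the count scaled to the total of its library. Levels of different genes were compared in TPM, which divides by gene length, and levels of the same gene in CPM. Per liver, all Cyp3a loci together held between 0.263% and 0.646% of all counts. Hepatocyte markers summed to between 76601 and 159656 CPM in all 20 livers, Kupffer cell markers to between 139 and 431 CPM, sinusoidal endothelial markers to between 215 and 339 CPM, stellate cell markers to between 321 and 615 CPM, lymphocyte markers to between 8.27 and 32.8 CPM and cholangiocyte markers to between 3.67 and 8.48 CPM.

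The Cyp3a pool, as counted, differed between the sexes in makeup in both strains and in size in C3. The summed TPM of the Cyp3a loci was 3840 ± 838 (SD, n = 5) in females and 4112 ± 718 in males of B6, and 5562 ± 694 in females and 3724 ± 633 in males of C3. The ratio of the means, females over males, was thus 0.934 in B6 and 1.49 in C3. The counts of Cyp3a41a, found almost only in females, cover only part of its RNA, so the sums and their ratios hold for counted reads only. C3 females were the group with the highest sum, and their lowest liver, at 4995 TPM, was above the highest liver of C3 males, at 4320 TPM. In B6 the ranges of the sexes overlapped, from 2702 to 4930 TPM in females and from 3217 to 4919 TPM in males.

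**Figure D1:**
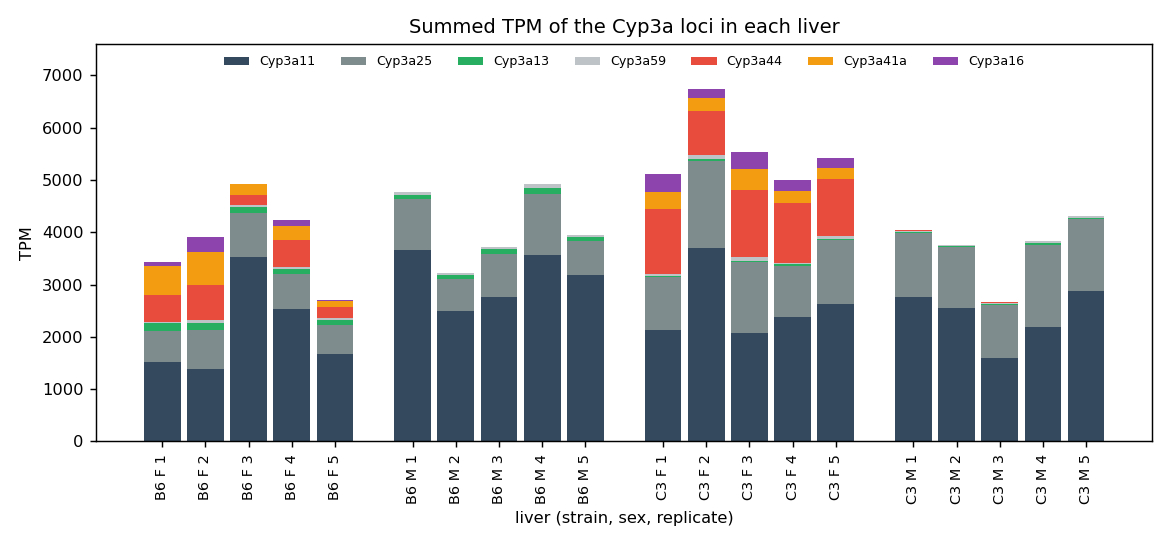
Stacked bars give the TPM of each Cyp3a locus in each of the 20 livers, grouped by strain and sex, and the height of a bar is the summed TPM. Cyp3a44, Cyp3a41a and Cyp3a16 are visible in all 10 females, although Cyp3a16 is thin in B6 F 3 and 5, and are hardly visible in males, and the sums of C3 females lie between 4995 and 6740 TPM.

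Cyp3a11, commonly taken as the main drug-metabolizing member in mouse liver, led the order of TPM in every group, and no other member reached its range within a group. It held 54.5% ± 14.47 of the Cyp3a TPM in females and 76.3% ± 3.20 in males of B6, and 46.0% ± 6.74 in females and 64.1% ± 5.23 in males of C3, and its mean TPM ranked between 40 and 59 among all loci. Cyp3a25 was next in the counted TPM of every group. It held 18.1% ± 1.92, 20.4% ± 2.79, 22.2% ± 2.56 and 34.4% ± 4.90 of the Cyp3a TPM in the same order of groups. In females Cyp3a44 did not separate from Cyp3a25. Its TPM ran from 182 to 676 in B6 females, against 559 to 846 for Cyp3a25, and from 838 to 1291 in C3 females, against 975.1 to 1663. Cyp3a41a and Cyp3a16 overlapped in both female groups as well. Cyp3a16, Cyp3a41a and Cyp3a44 together, grouped after their values had been seen, held 23.2% ± 13.7 of the Cyp3a TPM in B6 females and 30.4% ± 7.63 in C3 females. In males they held 0.00930% ± 0.00503 in B6 and 0.172% ± 0.0980 in C3. The counts of Cyp3a41a cover only part of its RNA and may hold reads of its copy Cyp3a41b. The order of the members and their shares in females thus hold for counted reads only.

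**Figure D2:**
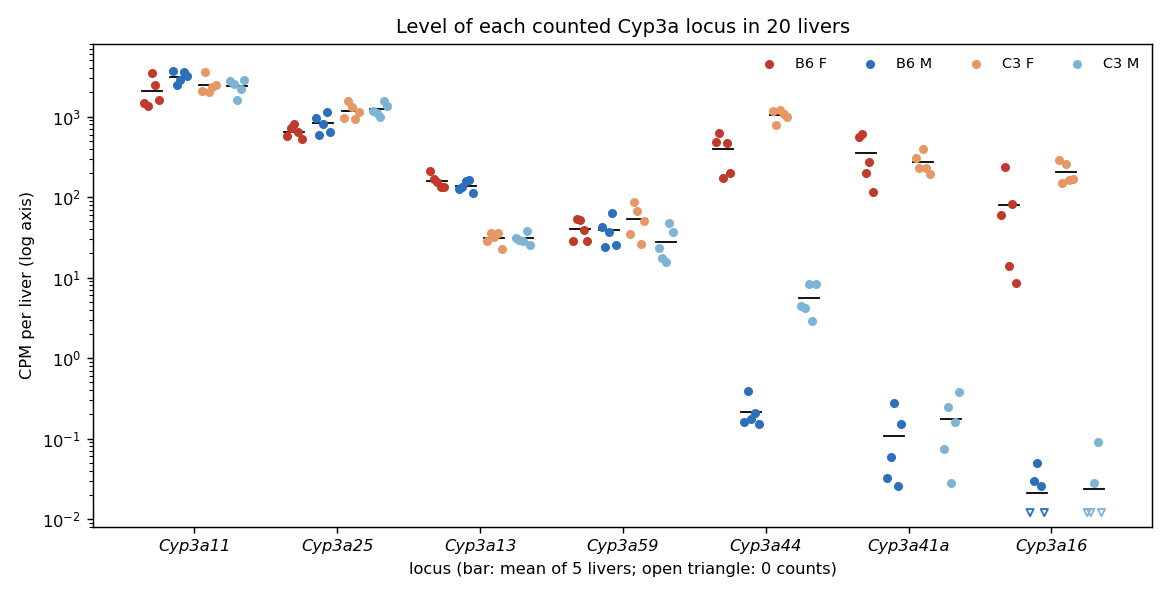
Points give the CPM of 1 liver on a log axis for each Cyp3a locus with counts, by group, with a bar at the mean of 5 livers and open triangles for livers with 0 counts. Cyp3a44, Cyp3a41a and Cyp3a16 separate by sex without overlap, with all male livers at or below 8.28 CPM, and Cyp3a13 separates by strain.

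The comparison of females with males asked which Cyp3a genes were sex-biased in each strain. Cyp3a16, Cyp3a41a and Cyp3a44, which are neighbours at one end of the cluster, were female-biased in both strains, and no member was called male-biased in either, where 3.12% of all loci were called lower in B6 females and 2.79% in C3 females. A locus was called at an adjusted p under 0.001 and an absolute log2 fold change over 0.5 in the quasi-likelihood test of edgeR. In B6, 3 of 7 members were called, all higher in females, against 6.34% of all loci tested and 3.23% called higher. In C3 the same 3 of 7 were called, against 6.9% of all loci and 4.11% called higher. Cyp3a16 and Cyp3a41a passed the filter on low counts through the female groups, so that a sex difference in them was set by the filter in part, while Cyp3a44 also had 120 to 294 counts in C3 males. The count over the members tested is a description.

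Cyp3a16 was at 60.4, 235, 14.1, 82.5 and 8.53 CPM in B6 females 1 to 5, and at 289, 149, 259, 162 and 167 CPM in C3 females 1 to 5. In males it had 0, 1, 2, 1 and 0 counts in B6 and 0, 0, 1, 4 and 0 counts in C3. Every female liver was thus above every male liver, and 5 of the 10 male livers had no count at all. The log2 fold change of Cyp3a16 in B6 was 11.41 (SE 1.14, adjusted p = 5.1e-07, edgeR). In C3 it was 12.59 (SE 1.08, adjusted p = 7.9e-08, edgeR). With so few male counts the fitted fold depends on the prior count, and on log2(TPM + 1) the same differences were 5.71 and 7.74. From the pooled counts, Cyp3a16 was 3976-fold higher in B6 females (95% exact interval 1553 to 14594) and 7022-fold higher in C3 females (3009 to 21628), where the intervals cover counting error only.

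Cyp3a41a, with the limits on its counts given above, was at 554, 616, 199, 269 and 117 CPM in B6 females and at 306, 232, 396, 230 and 193 CPM in C3 females. In males it had 1, 2, 11, 1 and 5 counts in B6 and 2, 9, 1, 7 and 11 counts in C3, at most 0.375 CPM. No male liver came near the females, and the female groups of both strains overlapped. Its log2 fold change was 11.44 in B6 (SE 0.47, adjusted p = 2.4e-12, edgeR). In C3 it was 10.45 (SE 0.45, adjusted p = 5.6e-12, edgeR). The ratio of pooled CPM was 3390 in B6 (2195 to 5549) and 1584 in C3 (1109 to 2348).

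Cyp3a44 was at 477, 631, 171, 475 and 200.2 CPM in B6 females and at 1170, 779, 1210, 1073 and 992 CPM in C3 females. In B6 males it had 5, 13, 7, 8 and 5 counts, or 0.151 to 0.388 CPM. In C3 males it had 120, 155, 294, 126 and 243 counts, or 2.86 to 8.28 CPM. Of the 10 male livers, Cyp3a44 was thus above 3 counts in 10, Cyp3a41a in 5 and Cyp3a16 in 1. The log2 fold change of Cyp3a44 between females and males was 10.72 in B6 (SE 0.53, adjusted p = 3.3e-11, edgeR). In C3 it was 7.44 (SE 0.41, adjusted p = 1.8e-10, edgeR). The pooled ratio was 1945 in B6 (1417 to 2749) and 191 in C3 (179 to 204).

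**Figure D3:**
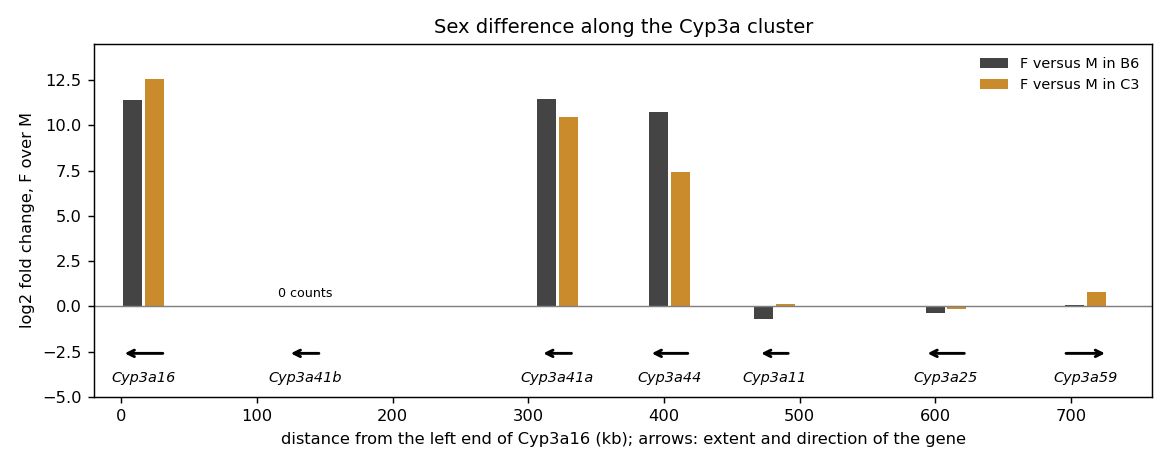
Bars give the log2 fold change of females over males in B6 and C3 for each tested member of the cluster, placed by distance in kb from the left end of Cyp3a16, and arrows give the extent and direction of each gene. The 3 genes with bars between 7.44 and 12.59 lie side by side, around the locus of Cyp3a41b at 0 counts, and the 3 genes to their right have bars between -0.71 and 0.80.

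The other 4 members were not called between the sexes. Cyp3a11 was at 1492, 1350, 3446, 2467 and 1613 CPM in B6 females and at 3683, 2474, 2833, 3578 and 3205 CPM in B6 males, so that the groups overlapped through female 3. Its log2 fold change was -0.71 in B6 (SE 0.22, adjusted p = 0.017, edgeR). In C3 it was 0.11 (SE 0.22, adjusted p = 0.71, edgeR). Within the pools the B6 difference of Cyp3a11 was -0.58, -0.14 and -1.24 in pools 1, 2 and 3. Cyp3a25 differed by -0.39 in B6 (SE 0.14, adjusted p = 0.034, edgeR). In C3 it differed by -0.16 (SE 0.14, adjusted p = 0.37, edgeR). At an adjusted p under 0.05 without a minimum fold, Cyp3a11 and Cyp3a25 would both be called lower in B6 females, which makes 5 of 7 members, against 34.6% of all loci called at that threshold, 16.2% higher and 18.4% lower. Cyp3a59, the member on the opposite strand, differed by 0.80 in C3 (SE 0.26, adjusted p = 0.021, edgeR). In B6 it differed by 0.08 (SE 0.25, adjusted p = 0.83, edgeR). Cyp3a13, which lies outside the cluster, had differences of 0.13 in B6 and -0.11 in C3 (adjusted p = 0.36 and 0.45, edgeR).

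The sex differences of the 3 called members were present within each of the 3 sequencing pools, in which each group had 1 or 2 mice. For Cyp3a44 the log2 fold changes in pools 1, 2 and 3 were 9.92, 9.60 and 11.05 in B6 and 7.40, 7.52 and 8.27 in C3. For Cyp3a41a they were 10.11, 11.13 and 11.71 in B6 and 10.39, 10.30 and 10.38 in C3. For Cyp3a16 they were 8.56, 7.98 and 10.24 in B6 and 11.29, 12.37 and 10.31 in C3.

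The comparison of C3 with B6 asked which members differed by strain within each sex. Cyp3a13 was lower in C3 in both sexes, while Cyp3a25 and Cyp3a44 were higher in C3 in both sexes. In females 3 of 7 members were called, 2 higher and 1 lower, against 9.4% of all loci tested, 4.63% called higher and 4.77% called lower. In males the same 3 of 7 were called in the same directions, against 9.64% of all loci, 4.09% called higher and 5.55% called lower.

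Cyp3a13 was at 211, 169, 155, 133 and 133 CPM in B6 females and at 28.6, 35.9, 31.9, 35.9 and 23.0 CPM in C3 females. In males it was at 126, 134, 159.9, 165 and 112 CPM in B6 and at 31.2, 29.7, 28.8, 38.1 and 25.7 CPM in C3. The strains did not overlap in either sex. The log2 fold change of C3 over B6 was -2.28 in females (SE 0.11, adjusted p = 1.2e-11, edgeR). In males it was -2.04 (SE 0.11, adjusted p = 5.9e-11, edgeR). Both calls were kept without any single liver, and within pools 1, 2 and 3 the difference was -2.11, -2.40 and -2.41 in females and -2.01, -2.08 and -1.99 in males. Cyp3a13 held 3.09% ± 0.902 of the Cyp3a TPM in B6 females and 0.402% ± 0.0726 in C3 females.

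Cyp3a25 was at 568, 723, 809, 641 and 527 CPM in B6 females and at 955, 1578, 1305, 931 and 1144 CPM in C3 females, without overlap. In males it was at 952, 589, 821, 1156 and 648 CPM in B6 and at 1187, 1122, 1001, 1543 and 1339 CPM in C3, where B6 male 4 lay within the range of C3. Its log2 fold change was 0.91 in females (SE 0.14, adjusted p = 4.1e-05, edgeR). In males it was 0.69 (SE 0.14, adjusted p = 0.00072, edgeR). Within pools 1, 2 and 3 the difference was 0.93, 0.28 and 1.23 in females and 0.84, 0.48 and 0.77 in males, so that in pool 2 it was under the fold threshold in both sexes. The call in females was lost when only the libraries compared were fitted (0.91, adjusted p = 0.00148, edgeR). The call in males was lost in 11 of 20 fits that left out 1 liver, with adjusted p up to 0.00445 and a fold between 0.62 and 0.77 (edgeR).

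Cyp3a44 was higher in C3 without overlap in both sexes. In females its log2 fold change was 1.53 (SE 0.32, adjusted p = 0.00098, edgeR), just past the threshold. This call was lost in 15 of 20 fits that left out 1 liver, with values between 1.27 and 1.75, and with a replicate block (1.55, adjusted p = 0.0035, edgeR). Within pools 1, 2 and 3 the difference in females was 1.84, 2.82 and 0.89. In males it was 4.81 (SE 0.56, adjusted p = 1.9e-06, edgeR), and the pooled ratio was 25.3 (95% exact interval 18.3 to 35.9). Within the pools the difference in males was 4.37, 4.90 and 3.67, and the call was kept without any single liver. It rests on 120 to 294 counts of Cyp3a44 per C3 male. Cyp3a11, 94.9% identical to Cyp3a44 in coding sequence, had 56860 to 97401 counts in the same livers. Whether reads of other members were placed on Cyp3a44 in C3 was not tested.

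Cyp3a16 was not called in females, at 1.77 (SE 0.54, adjusted p = 0.017, edgeR), and its strains overlapped through B6 female 2. Cyp3a41a differed by -0.12 in females (SE 0.26, adjusted p = 0.77, edgeR). In males Cyp3a16 had 4 counts in all of B6 and 5 in all of C3, a pooled ratio of 1.28 (95% exact interval 0.275 to 6.45), and Cyp3a41a had 20 and 30, a ratio of 1.53 (0.843 to 2.85). These intervals cover counting error only. The fitted log2 differences in males were 0.59 (SE 4.38) for Cyp3a16 and 0.87 (SE 0.99) for Cyp3a41a. Strain differences beyond the intervals could thus also have been missed in males at this depth. Cyp3a11 differed by 0.41 in females and by -0.41 in males (adjusted p = 0.16 and 0.15, edgeR). Cyp3a59 differed by 0.38 in females and by -0.34 in males (adjusted p = 0.27 and 0.33, edgeR), and its values overlapped in both sexes.

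**Figure D4:**
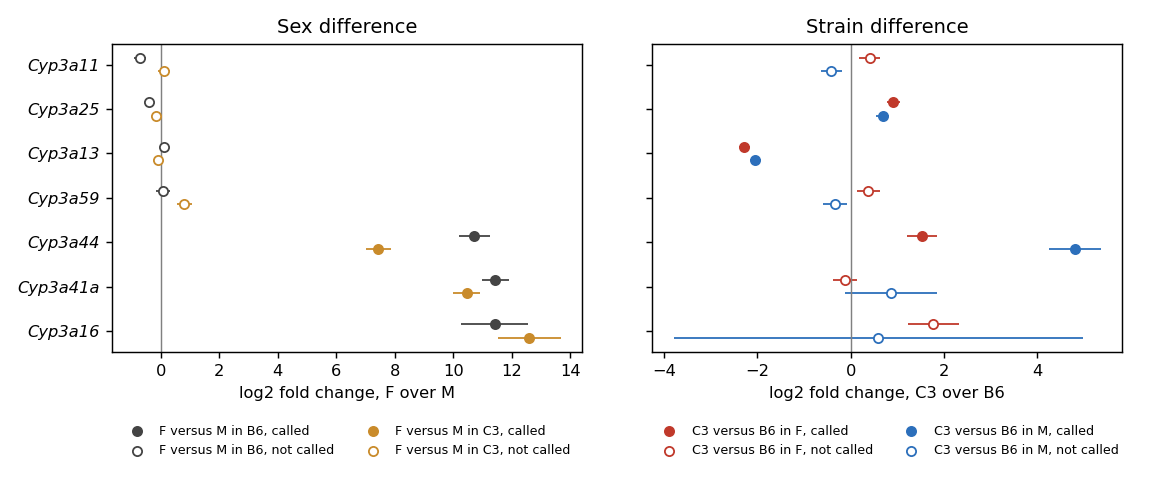
Points give the log2 fold change of each tested member with its SE, females over males on the left and C3 over B6 on the right, filled where the locus was called and open where it was not. On the left Cyp3a44, Cyp3a41a and Cyp3a16 stand apart from the other 4 members, and on the right Cyp3a13 lies at -2.28 and -2.04 and Cyp3a44 in males at 4.81.

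The sex-by-strain interaction asked whether the difference between the sexes itself differed between C3 and B6. In the edgeR test 0 of 7 members were called, against 0.401% of all loci tested, while 2 of 7 had an unadjusted p under 0.05 and DESeq2 called 1, in the negative direction, against 1.3% of all loci by that tool, 0.879% positive and 0.421% negative. These 2 were Cyp3a44 and Cyp3a11, and the gene called by DESeq2 was Cyp3a44. The share of all loci at an unadjusted p under 0.05 was not computed. For Cyp3a44 the log2 fold change between the sexes was smaller in C3 than in B6, with a difference of -3.28 (SE 0.67, adjusted p = 0.0096, edgeR). DESeq2 gave -3.30 for the same gene, with an adjusted p of 7.83e-06. The difference draws on the counts of Cyp3a44 in C3 males, with the limit on C3 reads given above. On log2(TPM + 1) the interaction of Cyp3a44 was -0.85, a scale on which values far below 1 TPM hardly differ. For Cyp3a11 the interaction was 0.82 (SE 0.31, adjusted p = 0.19, edgeR). Within the pools it was 0.80, -0.38 and 1.42.

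Spread between livers was the other feature in which the members differed. Over the 5 B6 females the coefficient of variation of CPM was 115% for Cyp3a16, 63.0% for Cyp3a41a, 50.7% for Cyp3a44 and 42.6% for Cyp3a11, against a median of 17.9% and a 90th percentile of 39.9% over all loci tested. Over the 5 C3 females the same values were 31.2%, 29.7%, 16.4% and 25.6%, against a median of 17.9% and a 90th percentile of 40.6%. For Cyp3a13, Cyp3a25 and Cyp3a59 the values were 20.1%, 17.5% and 30.6% in B6 females and 17.6%, 22.7% and 46.1% in C3 females. The highest B6 female was 27.5 times the lowest for Cyp3a16, 5.25 times for Cyp3a41a and 3.70 times for Cyp3a44. B6 female 2 was highest for all 3, and females 3 and 5 held the 2 lowest values of all 3. Cyp3a11 was highest in B6 female 3, at 3446 CPM, and lowest in B6 female 2, at 1350 CPM. Females 1 and 2 were both sequenced in pool 3, female 3 in pool 2 and females 4 and 5 in pool 1. The part of the pool in this spread was not tested.

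**Figure D5:**
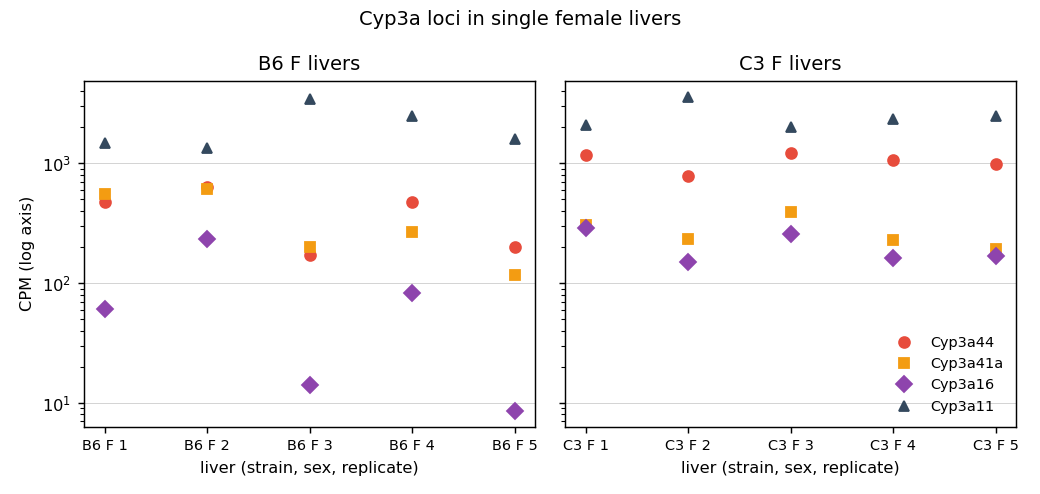
Points give the CPM of Cyp3a44, Cyp3a41a, Cyp3a16 and Cyp3a11 in each female liver on a log axis, B6 on the left and C3 on the right. In B6 the values of Cyp3a16 run from 8.53 to 235 CPM, and in C3 from 149 to 289 CPM.

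The genes that work with Cyp3a enzymes or act on their genes were counted from lists chosen with earlier results of these data known. Over all loci tested, 3.23% were called higher and 3.12% lower in B6 females against males, and 4.11% and 2.79% in C3. Between the strains, 4.63% were called higher and 4.77% lower in C3 females, and 4.09% and 5.55% in C3 males. Of 7 redox partners and heme supply genes, 1 was called higher and 2 lower in B6 females against males, and 1 higher in C3. Por, the electron donor of the P450 enzymes, was higher in females by 0.83 in B6 (SE 0.12, adjusted p = 2.6e-05, edgeR). In C3 it was higher by 0.96 (SE 0.12, adjusted p = 6.1e-06, edgeR). Cyb5b, a cytochrome b5, was the 1 gene of the list called lower in C3 than in B6, by -0.54 in females and -0.73 in males (adjusted p = 0.00013 and 4.8e-06, edgeR). Cyb5a, the other cytochrome b5, differed by -0.46 in females and -0.31 in males (adjusted p = 1e-05 and 0.00065, edgeR), under the fold threshold. Of 18 transcription factors and nuclear receptors tested of 19 listed, among them Nr1i2, Nr1i3 and Hnf4a, 0 were called between the sexes in either strain by edgeR. An unadjusted p under 0.05 was found for 7 of the 18 in B6 and 10 in C3, and DESeq2 called 1 in each, Foxa3 in B6 and Nfil3 in C3. In all, DESeq2 called 1144 loci in B6 and 1379 in C3. The share of all loci at an unadjusted p under 0.05 was not computed, here or for the lists below. An adjusted p under 0.05 with any fold was reached by 4742 of 13704 loci in B6 and 5479 in C3 (edgeR). Between the strains it was reached by 4515 in females and 4733 in males. Counts at an unadjusted p are thus a description. Between the strains 1 was called in females, Foxa3, at 1.39 (SE 0.19, adjusted p = 1.6e-05, edgeR). In males edgeR called 0, with 5 at an unadjusted p under 0.05, and DESeq2 called 2.

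Of 12 genes of growth hormone and sex steroid signalling, 4 were called higher and 1 lower in B6 females, and 3 higher in C3 females, with a median log2 fold change over the list of 0.60 and 0.36. Over all loci, 3.23% were called higher and 3.12% lower in B6 females, and 4.11% higher in C3 females. Cux2, a female-biased repressor of male-biased liver genes, differed by 5.56 in B6 and 6.30 in C3 (adjusted p = 2.3e-07 and 4.5e-08, edgeR). Bcl6, a male-biased repressor of female-biased genes, differed by -2.44 in B6 (SE 0.48, adjusted p = 0.00071, edgeR). In C3 it differed by -1.71 and was not called (SE 0.47, adjusted p = 0.0084, edgeR). Prlr, the prolactin receptor, differed by 2.21 in B6 and 1.29 in C3 (adjusted p = 1.1e-08 and 8.3e-06, edgeR). Between the strains edgeR and DESeq2 called 0 of the 12 in females, with 2 at an unadjusted p under 0.05. In C3 males edgeR called Prlr and Igf1 higher, against 4.09% of all loci.

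Of 12 other known targets of PXR and CAR, 4 were called higher and 2 lower in B6 females against males, and 3 higher and 3 lower in C3. Over all loci, 3.23% were called higher and 3.12% lower in B6, and 4.11% and 2.79% in C3. The largest in B6 were Cyp2b10 at 2.34, the transporter Slco1a4 at 1.89 and the efflux pump Abcb1a at 1.59 (adjusted p between 1.3e-05 and 0.00019, edgeR). In C3 they were Abcb1a at 2.66, the glutathione transferase Gsta2 at -2.17 and Slco1a4 at 1.82 (adjusted p between 2.4e-08 and 0.00044, edgeR). Between the strains 2 were higher and 2 lower in C3 females, against 4.63% and 4.77% of all loci. In males edgeR and DESeq2 called 0, with 7 of the 12 at an unadjusted p under 0.05.

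Of the loci within 300 kb of a member, 46 were listed and 33 were tested. When females were compared with males, 3 of the 33 were called per strain, against 6.34% of all loci for B6 mice and 6.9% for C3 mice. When C3 was compared with B6, 3 were called per sex, against 9.4% of all loci for females and 9.64% for males. In at least 1 comparison 6 were called, namely Gjc3, Zfp113, Tsc22d4, Ap4m1, Cpsf4 and Pilra, and the share of all loci called so was not computed. Gjc3, a connexin gene at under 5 CPM, had the largest changes of these 6, with -1.40 in B6 and -1.02 in C3 between the sexes and 2.38 in females and 2.001 in males between the strains (adjusted p between 1e-07 and 0.0003, edgeR).

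Markers of pericentral hepatocytes and some markers of other cells also differed by strain, and some markers differed by sex. Of 8 markers of pericentral hepatocytes, the cells around the central vein, 5 were lower in C3 females and 4 in C3 males, and 0 were higher. Over all loci, 4.63% were called higher and 4.77% lower in C3 females, and 4.09% and 5.55% in C3 males. The summed level of the pericentral markers was 13035 to 16397 CPM in B6 females against 7858 to 9053 CPM in C3 females, and 11124 to 14591 CPM in B6 males against 8709 to 11789 CPM in C3 males. Of the 5 Kupffer cell markers 2 were lower in C3 females and 1 in C3 males. Of 7 periportal markers edgeR called 0 in females, with 4 at an unadjusted p under 0.05, and 1 lower in males. Of 5 stellate cell markers edgeR called 0 in either sex, with 5 in females and 4 in males at an unadjusted p under 0.05. DESeq2 called 1 of them in females. Over all 13704 loci, 4515 in females and 4733 in males had an adjusted p under 0.05 with any fold (edgeR), so counts at an unadjusted p are a description. Of 6 hepatocyte markers 1 was higher in C3 in each sex. In C3 females 1 of 4 endothelial markers was lower and 1 of 4 cholangiocyte markers higher, and in C3 males 1 of 5 lymphocyte markers was lower. Between the sexes 1 of the 8 pericentral markers, Cyp1a2, was lower in C3 females, against 2.79% of all loci. In B6 edgeR called 0, with 2 at an unadjusted p under 0.05, and DESeq2 called 1. Of the other lists, 1 of 6 hepatocyte, 1 of 4 cholangiocyte and 1 of 7 periportal markers were lower in females in both strains. In C3, 1 of 5 lymphocyte markers was higher in females. Over all loci, 3.23% were called higher and 3.12% lower in B6 females, and 4.11% and 2.79% in C3 females. Of the Kupffer, endothelial and stellate cell markers edgeR called 0, with median log2 fold changes per list between 0.21 and 0.49. Summed stellate cell markers were at 529 to 615 CPM in B6 females against 408 to 440 CPM in B6 males. Endothelial markers were at 286 to 339 CPM against 223 to 251 CPM in the same groups. Cholangiocyte markers went the other way, at 3.67 to 4.84 CPM against 4.63 to 8.48 CPM. The part of these markers in the sex differences, and in the strain differences of Cyp3a13, Cyp3a25 and Cyp3a44, was not tested.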

How the data were processed

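The authors prepared stranded libraries from total RNA after removal of ribosomal RNA and sequenced them as paired 125-base reads in 3 pools. Adapters were trimmed with cutadapt 1.9.1, pairs were aligned to mm9 with STAR 2.5.1b, and featureCounts of Subread 1.5.0-p1 assigned them to RefSeq genes. Pairs with several alignments or several genes were left out, which bears on near-identical members. The deposited counts are not normalized. The deposited TPM values were made by the authors from these counts with a gene length whose definition is not given in the sources used here. The headers of the symbol and gene ID columns are exchanged in the deposited tables, and the columns were read by content.

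Total counts were between 27370921 and 46835745 over the 20 libraries. Intervals on ratios of pooled counts are exact binomial intervals at 95%, and they cover counting error only, since PCR copies were not told apart. Groups, sex and pool came from the labels. In R 4.3.3, edgeR 4.0.16 fitted group and pool to all 20 libraries after filterByExpr and TMM normalization, and p-values of the quasi-likelihood test were adjusted by Benjamini-Hochberg over 13704 loci. The SE is the log2 fold change divided by the root of its F statistic. The procedure was tested on simulated counts. Alternatives used DESeq2 1.42.0, limma 3.58.1 for log2-transformed TPM after adding 1 or 0.1, other normalizations, filters, thresholds and covariates, and each liver left out in turn. Within-pool values are differences of mean log2 CPM with a prior count of 2.

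The genes named were the members, other Cyp3a loci, called loci within 300 kb, up to 3 called genes with the largest change in each list, and the 2 loci nearest to each member in root mean square difference of centred log2 CPM, of which 1 locus is not reported here. The members, lists and markers were chosen with earlier results of these data known.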

Additional observations from a re-analysis of the deposited data

Results flagged for a closer look

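Cyp3a44 in B6 male 2 stood apart from the other livers of its group. It was at 0.388 CPM, from 13 counts, while the other 4 B6 males lay between 0.151 and 0.206 CPM, from 5 to 8 counts, and the gap was 0.77 of the range of the group, above the Dixon limit of 0.71. Of 26 sets of 5 livers that were looked at, 1 was marked in this way, and chance marks about 1 set in 20. Without B6 male 2, the difference between C3 and B6 males of Cyp3a44 stayed called, at 5.12 on the log2 scale in place of 4.81 (edgeR).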

How the results depend on the processing

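Whichever liver was left out, edgeR called 3 members between the sexes in each strain. Between the strains 2 to 3 were called in females and 2 to 3 in males, and for the interaction 0 in each such fit. With the libraries compared fitted alone, 1 member was called between the strains in females, Cyp3a13, and Cyp3a25 had an adjusted p of 0.00148 (edgeR). Over all loci that fit called 876. At an adjusted p under 0.05 with any fold, 5 members were called between the sexes in B6. The interaction had 1 called member with DESeq2 and 1 at an adjusted p under 0.05, with or without a minimum fold, which was Cyp3a44 each time. Of 10 alternative fits to all livers of the groups compared, 6 lost the call of Cyp3a44 between strains in females and 5 that of Cyp3a25 in males. Over all loci, 869 and 945 were called between the sexes in B6 and C3, 1288 and 1321 between the strains in females and males, and 55 for the interaction. Without the pool term these counts were 421, 482, 815, 881 and 20, and at an adjusted p under 0.05 with any fold 4742, 5479, 4515, 4733 and 405, or 1753, 2189, 2143, 2327 and 302 with the minimum fold kept. DESeq2 called 182 for the interaction, and the libraries compared alone gave 625 between the sexes in C3. The cause was not tested.

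Values that changed sign belonged to differences that were never called. Cyp3a11 between the sexes in C3 was -0.013 without the pool term and -0.076 to 0.30 with livers left out. With livers left out, Cyp3a59 between the sexes in B6 ran from -0.069 to 0.28, Cyp3a41a between strains in females from -0.33 to 0.098, and Cyp3a16 between strains in males from -0.615 to 0.94.

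The replicate numbers mark no shared animal in the labels, and the main fit had no replicate block. With group removed, the deviations of same-numbered livers correlated above 0.1 in 1, 0, 3 and 3 of 5 pairs in the 4 comparisons. With group and pool removed, they did so in 2, 1, 2 and 1 of 5 pairs, with mean correlations between -0.013 and 0.10. With a replicate block the members called were 3 and 3 between the sexes, 2 and 3 between the strains in females and males, and 0 for the interaction. Over all loci the block gave 845 and 933 between the sexes in B6 and C3. Between the strains it gave 1222 in females and 1263 in males, and for the interaction 40. Cyp3a44 between strains in females was 1.55 with the block, with an adjusted p of 0.0035 (edgeR). Male counts of Cyp3a16 and Cyp3a41a, at most 11 in a liver, limit the precision of their differences.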

Other observations

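Cyp3a57, a further Cyp3a gene that did not pass the filter on low counts, had 2 to 7 counts in B6 females, 0 to 3 in B6 males, 6 to 14 in C3 females and 1 to 3 in C3 males.

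Loci whose pattern over the 20 livers was near that of a member were found by the root mean square difference of log2 CPM after centring, where a smaller value means a closer match. Near Cyp3a16 was Cyp2a4 at 1.22, while the nearest member, Cyp3a41a, was at 1.23. Near Cyp3a41a was Sult3a1 at 0.90. The nearest to Cyp3a44 were Gm4794 at 1.77 and Cyp2a4 at 1.79. For Cyp3a13 the nearest were Pkd2 at 0.25 and Cfhr2 at 0.26, both with lower means in C3, where Cfhr2 was at 116 CPM in females, against 453 CPM in B6 females. For Cyp3a11 they were Khk at 0.28 and Ces2e at 0.30, for Cyp3a25 Atp9a at 0.23 and Slc35d2 at 0.23, and for Cyp3a59 9930012K11Rik at 0.30 and Cirbp at 0.31. Cyp3a59 was closer to Cirbp than to Cyp3a25, its nearest member in sequence, at 0.63. These are descriptions over 20 livers that share 4 groups and 3 pools.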
